A study of Homo sapiens with 24 samples.

Results

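Transcripts of 9 genes that start, carry or restrain the extrinsic cell death signal were followed across 24 RNA sequencing libraries. The genes were taken by symbol from the 25343 genes listed in the deposited tables: TNFRSF10A and TNFRSF10B, the signalling receptors for the death ligand TRAIL; TNFRSF10D, a TRAIL receptor with a shortened death domain that acts as a decoy; FAS, the receptor for Fas ligand; FADD, the adaptor; CASP8, the initiator caspase; CFLAR, which encodes the caspase-8 decoy c-FLIP; and XIAP and BIRC2, which encode inhibitor of apoptosis (IAP) proteins. TNFRSF10B was included because it is a known target of the stress transcription factor CHOP.

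The cells were HCT116, which derive from a colon carcinoma, and A375, which derive from a melanoma, each as the wild-type parent and as a PTDSS2 knockout. The knockout of HCT116 was 1 clone (number 3) and that of A375 was 1 clone (number 54), so a difference between a knockout and its parent cannot be told apart from a difference between a clone and an uncloned line. Cells received the vehicle DMSO or 0.1 µM DS07551382, an inhibitor of PTDSS1, for 24 h, which gave 8 groups of 3 libraries. PTDSS1 and PTDSS2 are the paired enzymes that make phosphatidylserine, so the inhibited knockout is the group in which both are hit. The labels do not say that replicates were separate cultures, so the p-values measure only how far these libraries scatter, and that scatter may be technical. In bulk libraries, fewer cells of a type and less RNA per cell cannot be told apart.

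Death receptors of the tumour necrosis factor receptor family carry a death domain in the cytoplasm. Ligand binding gathers the receptors, FADD binds their death domains, and FADD recruits caspase-8, which is then activated by self-cleavage. c-FLIP competes with caspase-8 for FADD, decoy receptors bind TRAIL without passing on a full signal, XIAP blocks the executioner caspases, and BIRC2 (cIAP) is a ubiquitin ligase that keeps the receptor complexes on the survival branch through NF-kB.

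PTDSS2, the targeted gene, followed the genotype labels. In HCT116 it was at 27.7 to 33.0 TPM, a level scaled to a fixed library total and adjusted for transcript length, in the 6 parent libraries and at 4.05 to 6.64 TPM in the 6 knockout libraries. In A375 it was at 17.9 to 20.6 TPM in the parents and at 0.59 to 1.63 TPM in the knockouts. Libraries held 6211629 to 11688267 counts, with a median of 9200459. The inhibited HCT116 knockout libraries were shallower than their vehicle controls (6211629 to 7910753 against 8829345 to 9108761 counts), whereas the inhibited A375 knockout libraries, at 9413904 to 11688267 counts, overlapped theirs at 8123567 to 9950536; the part of depth in the results was not tested. Summed levels of 9 colon epithelium markers were 3224 to 4005 TPM in HCT116 and 296 to 402 TPM in A375, and those of 9 melanocyte markers were 387 to 538 TPM in A375 and 17.3 to 28.1 TPM in HCT116. In each group 3 or 4 of the 9 markers of its own lineage were under 1 TPM in every library; VIL1, CEACAM5 and LGALS4 were so in all HCT116 groups and PMEL, TYR and DCT in all A375 groups. In the inhibited HCT116 knockout 2 of the 5 tested colon markers rose (EPCAM and CDH1) and 3 fell (KRT8, KRT18 and CDX2), and their summed level was 3224 to 3316 TPM against 3834 to 4005 TPM with vehicle. In the inhibited A375 knockout 3 of the 5 tested melanocyte markers rose and 0 fell, with a summed level of 489 to 538 TPM against 387 to 407 TPM with vehicle, and both tested colon markers, KRT8 and KRT18, fell. The part of these shifts in the results was not tested.

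In HCT116, TNFRSF10B was the most abundant of the 9 transcripts in all 4 groups. In the vehicle-treated parent TNFRSF10B was highest at 67.3 ± 2.5 TPM (SD, n = 3), followed by FADD at 46.6 ± 2.0 TPM, TNFRSF10D at 38.9 ± 0.9 TPM, BIRC2 at 37.8 ± 1.6 TPM, TNFRSF10A at 31.2 ± 0.4 TPM and CASP8 at 22.9 ± 0.8 TPM. XIAP at 19.3 ± 1.1 TPM, CFLAR at 17.4 ± 1.6 TPM and FAS at 14.8 ± 1.2 TPM came last. The ranges of TNFRSF10D and BIRC2 overlapped, as did those of XIAP and CFLAR and those of CFLAR and FAS, so their order was not resolved.

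A375 carried more of the adaptor and of BIRC2 and less of each receptor. In its vehicle-treated parent FADD led at 85.7 ± 2.1 TPM, ahead of BIRC2 at 59.4 ± 2.0 TPM and TNFRSF10B at 52.2 ± 1.3 TPM. TNFRSF10A at 19.3 ± 0.2 TPM, CASP8 at 18.9 ± 4.0 TPM and XIAP at 17.6 ± 0.3 TPM came next, with CASP8 overlapping both of the others and TNFRSF10A above XIAP without overlap, and CFLAR at 7.92 ± 0.47 TPM and FAS at 7.88 ± 1.11 TPM were low. TNFRSF10D was at 0 or 1 count in each of the 12 A375 libraries (4 counts in all) against 442 to 656 counts in each of the 12 HCT116 libraries.

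Between the vehicle-treated parents, 2 of the 9 genes were higher and 6 lower in A375 by edgeR's quasi-likelihood test at a Benjamini-Hochberg adjusted p under 0.05; of all 14637 genes tested over both lines, 42.3% were higher and 39.5% lower. FADD was higher by 0.93 ± 0.07 (log2 fold change ± SE) and BIRC2 by 0.72 ± 0.05. CFLAR was lower, with a log2 fold change of -1.25 ± 0.10, as were FAS (-0.86 ± 0.12), TNFRSF10A (-0.64 ± 0.10) and TNFRSF10B (-0.32 ± 0.04). CASP8 was lower by a log2 fold change of -0.24 ± 0.08, with an adjusted p of 0.00733 that rose to 0.0572 without the vehicle-treated A375 parent replicate 3. XIAP differed by -0.06 ± 0.05 (adjusted p = 0.309), but was lower on log2(TPM + 0.5) with limma (-0.13, adjusted p = 0.022). For TNFRSF10D, 1942 counts in the HCT116 parent against 2 in the A375 parent gave a ratio of 812 between HCT116 and A375 in CPM, counts scaled to a fixed library total, with an exact 95% interval of 225 to 6712 for the counting error alone.

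**Figure D1:**
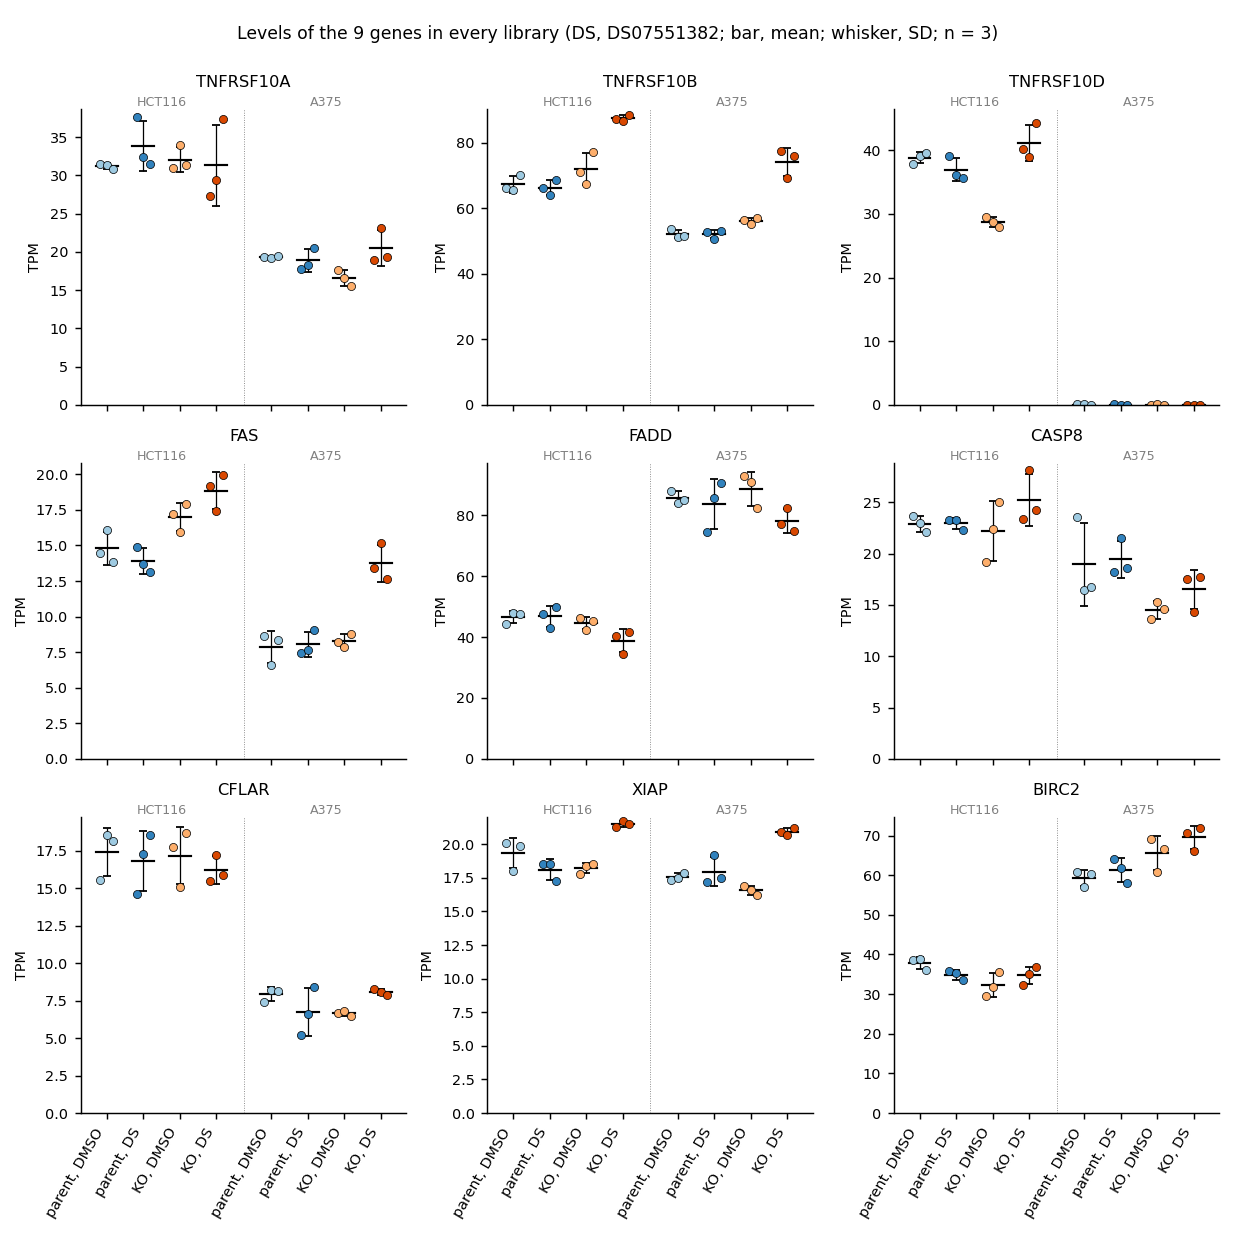
Levels of the 9 genes in TPM in every library, with 1 panel per gene; the x axis gives the 8 groups (KO, PTDSS2 knockout; DS, DS07551382), points are libraries, the bar is the mean and the whisker the SD (n = 3). TNFRSF10B and XIAP are highest within each line in the inhibited knockout, FAS rises clearly in the inhibited A375 knockout, and TNFRSF10D sits near 0 in A375.

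The first question of the design was what PTDSS1 inhibition does where PTDSS2 is intact. In the parents no member changed in either line: 0 of 9 tested genes in HCT116 and 0 of 8 in A375 passed in either direction by edgeR, DESeq2 or limma-voom, and none had an unadjusted p under 0.05 by edgeR. The share of all tested genes that passed was 0% in the HCT116 parent, where 550 of 13164 genes had an unadjusted p under 0.05, and 0.0892% (12 of 13455 genes) in the A375 parent. The largest member difference in HCT116 was that of TNFRSF10A at 0.14 ± 0.09 (log2 fold change ± SE) and in A375 that of CFLAR at -0.19 ± 0.12.

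In the knockouts the same dose changed members in both lines, and only some of the changes were shared. In HCT116, 3 of 9 members rose and 1 fell, against 17.0% and 19.6% of all tested genes. In A375, 5 of 8 tested members rose and 1 fell, against 18.6% and 18.8% of all tested genes. TNFRSF10B and XIAP were the members that rose in both lines, and FADD fell in both. The decoy TNFRSF10D also rose in HCT116, and TNFRSF10A, FAS and CFLAR also rose in A375. The fall of FADD in HCT116 was near the threshold (edgeR adjusted p = 0.0424) and did not pass under several other settings. Its response did not differ from that of the parent at the threshold in either line. The median log2 fold change over the tested members was 0.15 in HCT116 and 0.29 in A375, beside 0.00 and 0.01 over all tested genes.

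**Figure D2:**
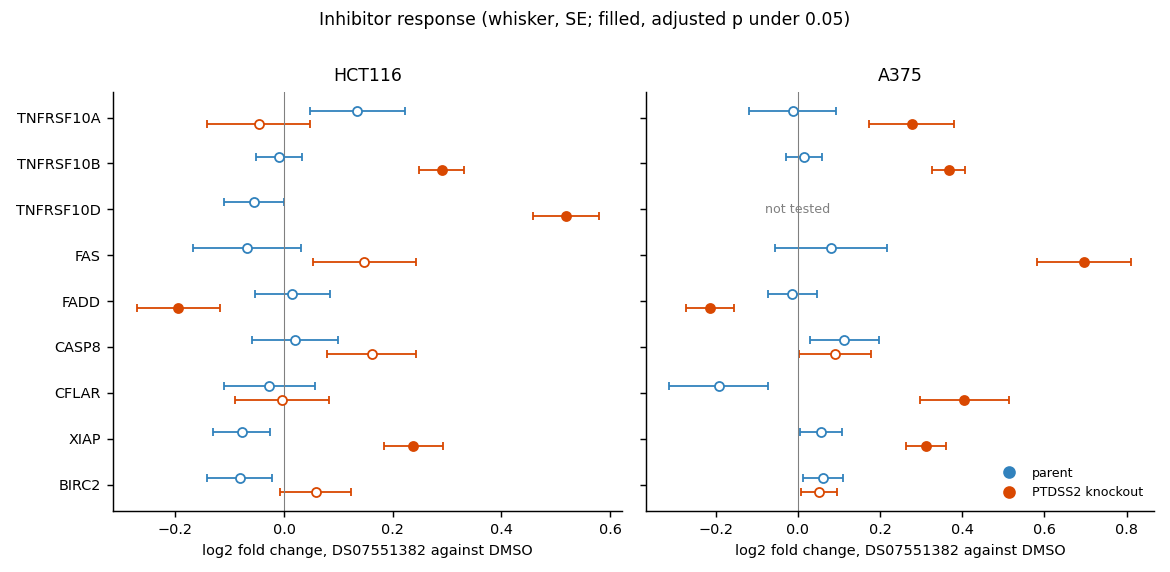
Inhibitor response of each gene in HCT116 (left) and A375 (right); the x axis is the log2 fold change of DS07551382 against DMSO in the parent (blue) and in the PTDSS2 knockout (orange), whiskers are SE, and filled points passed an adjusted p of 0.05. All filled points belong to the knockouts; TNFRSF10D was too low in A375 to be tested.

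TNFRSF10B, the CHOP-responsive TRAIL receptor, was at 71.1, 67.5 and 77.3 TPM in the vehicle-treated HCT116 knockout and at 87.2, 86.8 and 88.5 TPM in the inhibited one. The inhibited libraries were all above the 9 other HCT116 libraries, which lay between 64.0 and 77.3 TPM. The log2 fold change was 0.29 ± 0.04 (1.22-fold, edgeR adjusted p = 2.47e-07). In the A375 knockout it went from 56.4, 55.3 and 57.1 TPM to 77.4, 69.3 and 75.9 TPM, a log2 fold change of 0.37 ± 0.04 (1.29-fold, adjusted p = 4.53e-10). The groups did not overlap in either line. The response exceeded that of the parent by 0.30 ± 0.06 in HCT116 (adjusted p = 0.000144) and by 0.35 ± 0.06 in A375 (adjusted p = 9.85e-06), as tested by the interaction of genotype and inhibitor. In these interactions 3 of 9 members were higher and 0 lower in HCT116, where 10.9% and 13.5% of all tested genes passed, and 4 of 8 were higher and 0 lower in A375, where 13.0% and 13.8% passed. DESeq2 and limma-voom also called 0 members lower in either interaction; 1 member, FADD, had an unadjusted p under 0.05 in each.

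CHOP itself, encoded by DDIT3, moved much further than TNFRSF10B, and more in HCT116 than in A375. DDIT3 was at 13.7, 14.2 and 18.9 TPM in the vehicle-treated HCT116 knockout and at 72.7, 62.4 and 63.1 TPM in the inhibited one, a log2 fold change of 2.06 ± 0.12. In the A375 knockout it was at 42.6, 36.1 and 31.0 TPM with vehicle and at 76.6, 78.8 and 76.7 TPM with inhibitor, a log2 fold change of 1.01 ± 0.09. The A375 response of DDIT3 was smaller than that of HCT116, with a difference of -1.05 ± 0.16 (adjusted p = 6.51e-07), whereas the difference for TNFRSF10B was 0.08 ± 0.06 and did not pass (adjusted p = 0.361).

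TNFRSF10A, the other signalling TRAIL receptor, did not pass in the HCT116 knockout: its levels of 27.3, 29.4 and 37.3 TPM with inhibitor spanned the 31.0, 33.9 and 31.3 TPM with vehicle (log2 fold change -0.05 ± 0.10). In the A375 knockout it rose from 17.6, 16.6 and 15.5 TPM to 19.0, 23.2 and 19.3 TPM, by 0.28 ± 0.10 (adjusted p = 0.0328). The A375 groups did not overlap, but the call depended on single libraries. The adjusted p was 0.0715 without vehicle knockout replicate 2, 0.138 without vehicle knockout replicate 3, 0.224 without inhibited knockout replicate 2 (log2 fold change 0.18) and 0.107 with DESeq2. The interaction in A375 was 0.29 ± 0.15 and did not pass (adjusted p = 0.156). The A375 knockout response was above that of HCT116 by 0.33 ± 0.14 (adjusted p = 0.105), a difference that passed without inhibited HCT116 knockout replicate 3 (0.45, adjusted p = 0.0224).

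The decoy TNFRSF10D had the largest inhibitor response of the members in the HCT116 knockout. It was at 29.5, 28.8 and 27.9 TPM with vehicle and at 40.2, 39.0 and 44.3 TPM with inhibitor, with no overlap. The log2 fold change was 0.52 ± 0.06 (1.43-fold, adjusted p = 1.78e-09), and it exceeded that of the parent by 0.57 ± 0.08 (adjusted p = 4.01e-07). The vehicle-treated knockout started low: the parent held 37.9, 39.2 and 39.5 TPM with vehicle, so that the knockout without inhibitor was lower than the parent by a log2 fold change of -0.42 ± 0.06 (adjusted p = 2.04e-07). Both contrasts use the vehicle knockout libraries. With inhibitor the knockout libraries overlapped the range of the vehicle-treated parent.

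Because the 4 TRAIL receptor genes are close paralogs, reads that fit more than 1 of them are shared out by estimation. Counts of TNFRSF10A and TNFRSF10D were whole numbers in every library, as were those of TNFRSF10B in the vehicle-treated A375 parent. The higher counts of TNFRSF10B were read without decimals, so this was not checked for them. Most counts of TNFRSF10C, the decoy receptor held by a lipid anchor, were not whole, so its values are the least certain. TNFRSF10C was at 2.46 to 3.63 TPM in the vehicle-treated HCT116 parent and at 5.27 to 6.45 TPM in the vehicle-treated knockout, higher by 0.99 ± 0.24 (adjusted p = 0.00205), and its response to inhibitor in the knockout was -0.22 ± 0.23 (adjusted p = 0.496).

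Summed over the 4 genes, TRAIL receptor transcripts in the HCT116 knockout were at 138, 135 and 142 TPM with vehicle and at 159, 159 and 177 TPM with inhibitor. In the A375 knockout they were at 74.4, 72.3 and 73.6 TPM with vehicle and at 96.9, 92.8 and 95.8 TPM with inhibitor. The sum was thus higher in all 3 inhibited libraries of each line, by 26.5 TPM in HCT116 and 21.7 TPM in A375. The share of the sum held by the 2 decoys in HCT116 was 29.3%, 30.1% and 30.0% in the vehicle-treated parent, 26.1%, 25.1% and 23.6% in the vehicle-treated knockout and 27.8%, 27.1% and 28.9% in the inhibited knockout. In A375 it was between 0.0957% and 1.44% in all 12 libraries. The exact two-sided permutation test gave p = 0.1 for each of these differences in the sum and the HCT116 decoy share, the smallest value that 3 against 3 allows, and 0.2 after adjustment over the 8 tests made.

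**Figure D3:**
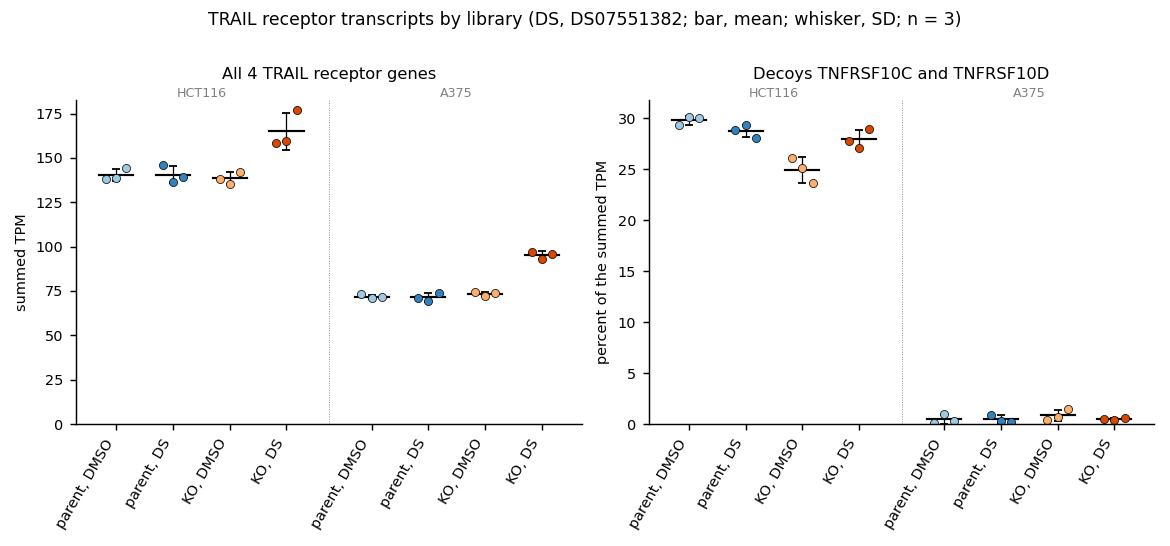
TRAIL receptor transcripts by library: left, the summed TPM of TNFRSF10A, TNFRSF10B, TNFRSF10C and TNFRSF10D; right, the percent of that sum held by the decoys TNFRSF10C and TNFRSF10D. Points are libraries, bars means and whiskers SD (n = 3; KO, PTDSS2 knockout; DS, DS07551382); the inhibited knockouts have the highest sums in both lines, and the decoy share is under 1.5% in A375.

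FAS had the largest response of the members in A375. In the vehicle-treated knockout it was at 8.24, 7.89 and 8.80 TPM and in the inhibited knockout at 13.4, 15.2 and 12.6 TPM. All 9 other A375 libraries lay between 6.60 and 9.05 TPM, below each inhibited knockout library. The log2 fold change was 0.70 ± 0.11 (1.62-fold, adjusted p = 3.41e-06), and it exceeded that of the parent by 0.62 ± 0.18 (adjusted p = 0.00807). In HCT116, FAS was at 17.2, 15.9 and 17.9 TPM in the vehicle knockout and at 19.2, 17.4 and 19.9 TPM in the inhibited one, which overlap, with a log2 fold change of 0.15 ± 0.10 (adjusted p = 0.235). The difference between the lines was itself tested and was 0.55 ± 0.15 (adjusted p = 0.00439). With inhibitor, FAS in the A375 knockout reached a level that overlapped the vehicle-treated HCT116 parent at 13.8 to 16.1 TPM.

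CFLAR followed FAS in A375 on the count scale. In CPM the vehicle-treated A375 knockout held 11.9, 11.8 and 13.1 and the inhibited one 16.2, 15.8 and 16.9, again without overlap. The log2 fold change was 0.40 ± 0.11 (1.32-fold, adjusted p = 0.00269), and it exceeded that of the parent by 0.60 ± 0.16 (adjusted p = 0.00454). Part of that difference is the parent response of -0.19 ± 0.12, which did not itself pass (edgeR adjusted p = 0.824). In the HCT116 knockout CFLAR was at 33.3, 32.8 and 36.4 CPM with vehicle and 34.7, 37.8 and 29.5 CPM with inhibitor, a log2 fold change of 0.00 ± 0.09. The difference between the lines was 0.41 ± 0.14 (adjusted p = 0.0317); it did not pass with DESeq2 (adjusted p = 0.0691) or on log2(TPM + 0.5) (0.33, adjusted p = 0.179). Leaving out any of 5 single knockout libraries ended that call, with a difference of 0.37 (adjusted p = 0.0781) without HCT116 vehicle replicate 3, 0.33 (0.114) without HCT116 inhibited replicate 3, 0.39 (0.0827) without A375 vehicle replicate 1, 0.39 (0.0712) without A375 vehicle replicate 2 and 0.38 (0.0877) without A375 inhibited replicate 3. FAS and CFLAR were the 2 of 9 members whose knockout response was higher in A375, and 0 were lower, with 10.4% and 8.31% of all tested genes; DESeq2 and limma-voom also called 0 lower, and 0 had an unadjusted p under 0.05.

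The size of the CFLAR change depended on the scale. CFLAR has 8 annotated transcripts, long and short, and the abundance-weighted transcript length that the authors' estimation assigned to it ran from 2804 to 4417 bases between libraries. In A375 that length was 3560, 3496 and 4009 bases in the vehicle knockout and 4020, 3914 and 4408 bases in the inhibited one. In TPM, which divides by it, CFLAR was at 6.69, 6.82 and 6.50 with vehicle and at 8.28, 8.06 and 7.87 with inhibitor. On log2(TPM + 0.5) the change was 0.26 ± 0.13 and did not pass with limma (adjusted p = 0.147), and the interaction was 0.50 ± 0.18 (adjusted p = 0.0658).

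**Figure D4:**
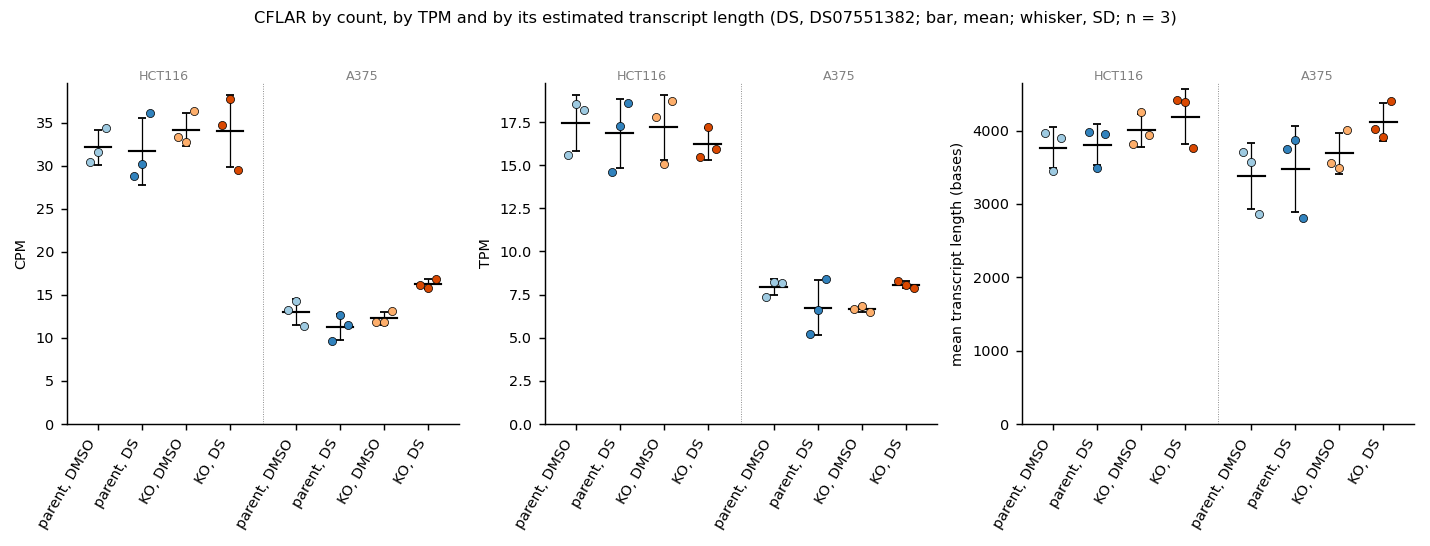
CFLAR in every library by CPM (left), by TPM (middle) and by its estimated mean transcript length in bases (right). Points are libraries, bars means and whiskers SD (n = 3, KO for PTDSS2 knockout, DS for DS07551382). The inhibited A375 knockout stands above its control by both measures of level. Its estimated length is greater on average, but the libraries overlap and the difference was not tested.

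Promoter windows are shown for FAS and CFLAR, the 2 members whose knockout response was called higher in A375 than in HCT116. TNFRSF10A, TNFRSF10B and XIAP also rose in the inhibited A375 knockout. RefSeq (GRCh38.p14; the deposited counts were made on another build, hg19) gave 16 windows for 6 of the 9 members, and the 250 bases before each start were searched on both strands for the NF-kB site, the CHOP element TGCAAT, the C/EBP-ATF core TGATGNAA and the AP-1 site TGANTCA. The most upstream FAS window, chr10:88990548-88990797 on the plus strand, holds 1 AP-1 match (capitals), and that of CFLAR, chr2:201118466-201118715 on the plus strand, holds 1 NF-kB match (capitals).
FAS: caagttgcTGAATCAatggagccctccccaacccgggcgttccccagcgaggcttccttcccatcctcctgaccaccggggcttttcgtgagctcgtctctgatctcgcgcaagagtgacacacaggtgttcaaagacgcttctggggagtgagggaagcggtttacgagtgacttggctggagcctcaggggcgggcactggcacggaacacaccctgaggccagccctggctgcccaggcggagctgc
CFLAR: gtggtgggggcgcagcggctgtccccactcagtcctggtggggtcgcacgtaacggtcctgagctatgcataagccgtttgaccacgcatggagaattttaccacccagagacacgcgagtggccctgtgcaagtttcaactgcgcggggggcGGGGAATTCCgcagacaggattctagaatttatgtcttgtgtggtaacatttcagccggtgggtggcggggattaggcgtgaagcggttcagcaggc
The NF-kB match begins 97 bases before the CFLAR start and the AP-1 match 242 bases before the FAS start, and no 2 of the matches overlap. Of the other windows of FAS and CFLAR, that of the third FAS start holds an NF-kB match and that of the second CFLAR start a CHOP element. That of the third CFLAR start holds a CHOP element and an AP-1 match. The windows of XIAP hold no match. Among the 16 member windows, 2 held an NF-kB match, 2 the CHOP element, 0 the C/EBP-ATF core and 3 an AP-1 match, beside 9.96%, 7.03%, 3.14% and 6.57% of all 35116 windows. None of these 16 windows belongs to TNFRSF10A, TNFRSF10B or TNFRSF10D, so these genes were not searched. Which start was used in these cells was not measured, and a match describes the letters only.

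FADD, the adaptor, was the member that fell in both knockouts. In A375 it went from 92.7, 90.8 and 82.4 TPM with vehicle to 77.1, 82.4 and 74.6 TPM with inhibitor, by a log2 fold change of -0.21 ± 0.06 (adjusted p = 0.0036), and the ranges just overlapped. In HCT116 it went from 46.1, 42.2 and 45.2 TPM to 40.3, 34.4 and 41.6 TPM, by -0.19 ± 0.08 (adjusted p = 0.0424). The HCT116 call was near the threshold: the adjusted p was 0.0548 to 0.121 under 5 other settings of scaling, filter, tool and libraries, 0.107 without vehicle knockout replicate 1, 0.0811 without vehicle knockout replicate 3 and 0.286 without inhibited knockout replicate 2, where the log2 fold change was -0.12. The interaction was -0.21 ± 0.10 in HCT116 (adjusted p = 0.136) and -0.20 ± 0.08 in A375 (adjusted p = 0.0744). In A375 it passed without inhibited parent replicate 1 (-0.27, adjusted p = 0.00908), without vehicle knockout replicate 3 (-0.25, 0.031) and without inhibited knockout replicate 2 (-0.24, 0.0329).

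CASP8, which encodes the initiator caspase, did not pass in either knockout. It was at 19.2, 22.4 and 25.0 TPM with vehicle and 23.4, 28.1 and 24.2 TPM with inhibitor in HCT116 (log2 fold change 0.16 ± 0.08, adjusted p = 0.122), and at 13.6, 15.3 and 14.6 TPM against 17.5, 14.3 and 17.7 TPM in A375 (0.09 ± 0.09, adjusted p = 0.455). The groups overlapped in both lines.

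XIAP, the direct caspase inhibitor, rose in both lines. In the HCT116 knockout it was at 17.8, 18.4 and 18.6 TPM with vehicle and at 21.3, 21.8 and 21.5 TPM with inhibitor, a log2 fold change of 0.24 ± 0.05 (1.18-fold, adjusted p = 0.000478). In the A375 knockout it was at 16.9, 16.6 and 16.2 TPM and at 20.9, 20.7 and 21.2 TPM, a log2 fold change of 0.31 ± 0.05 (1.24-fold, adjusted p = 1.25e-06). In each line the 3 inhibited knockout libraries were above all 9 others. The response exceeded that of the parent by 0.32 ± 0.08 in HCT116 (adjusted p = 0.00139) and by 0.26 ± 0.07 in A375 (adjusted p = 0.00482), and the lines differed by 0.08 ± 0.07 (adjusted p = 0.519).

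BIRC2 did not respond to the inhibitor beyond its spread. In the HCT116 knockout it was at 29.6, 31.8 and 35.5 TPM with vehicle and 32.4, 35.1 and 36.8 TPM with inhibitor (log2 fold change 0.06 ± 0.07), and in the A375 knockout at 69.2, 60.8 and 66.6 TPM against 70.6, 66.1 and 71.8 TPM (0.05 ± 0.04). Both pairs of groups overlapped.

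Knockout and parent were also compared without inhibitor. In HCT116, 1 of 9 members was higher and 1 lower, against 10.5% and 10.8% of all tested genes. TNFRSF10D was the lower one, as above. TNFRSF10B was higher by 0.11 ± 0.04 (adjusted p = 0.042), with 66.2, 65.5 and 70.2 TPM in the parent overlapping the knockout. That call ended with DESeq2 (adjusted p = 0.123), limma-voom (0.053), log2(TPM + 0.5) (0.222) and only the 6 libraries compared (0.0595), and without parent replicate 1 (0.10, adjusted p = 0.133), parent replicate 2 (0.10, 0.141) or knockout replicate 3 (0.07, 0.325). FAS was at 0.23 ± 0.09 (adjusted p = 0.073) and passed without parent replicate 2 (0.31, 0.0324); BIRC2 was at -0.15 ± 0.06 (0.062) and passed on log2(TPM + 0.5) (-0.23, 0.0363) and without parent replicate 3 (-0.19, 0.0409) or knockout replicate 3 (-0.21, 0.0189).

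In A375, 2 of 8 members were higher and 1 lower in the vehicle-treated knockout, against 9.18% and 6.54% of all tested genes. Without correction for library composition the share of higher calls among all calls moved from 58.4% to 38.6%, and it was 38.2% on log2(TPM + 0.5). BIRC2 was higher by 0.19 ± 0.05 (adjusted p = 0.00476) and TNFRSF10B by 0.15 ± 0.04 (adjusted p = 0.0134), and CASP8 was lower by a log2 fold change of -0.27 ± 0.09 (adjusted p = 0.0348). None of these 3 passed on log2(TPM + 0.5), and single libraries decided each. TNFRSF10B did not pass with library size alone (0.11, adjusted p = 0.0799) or DESeq2 (0.14, 0.0756), nor without parent replicate 2 (0.14, adjusted p = 0.0574), parent replicate 3 (0.14, 0.0614) or knockout replicate 3 (0.14, 0.0704). CASP8 did not pass with DESeq2 (-0.28, 0.118), nor without parent replicate 1 (-0.19, 0.262), knockout replicate 1 (-0.24, 0.128) or knockout replicate 3 (-0.26, 0.0949), and BIRC2 did not pass without knockout replicate 1 (0.15, 0.0616).

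The other genes of the pathway were taken from lists and set beside the members in the inhibited knockouts. These lists were chosen with earlier results of these data known, so their counts describe the genes listed and are no independent test. The genes named from each list were picked for their small adjusted p. For each list below, the shares of all tested genes were 17.0% up and 19.6% down in HCT116. In A375 they were 18.6% up and 18.8% down. Of the CHOP axis, 8 of 9 genes rose and 0 fell in each line (median log2 fold change 0.88 in HCT116 and 0.45 in A375). Beside DDIT3 these included ATF4, the stress transcription factor upstream of CHOP (0.72 ± 0.03 in HCT116 and 0.45 ± 0.03 in A375), TRIB3, a pseudokinase induced by it (1.54 ± 0.06 and 0.66 ± 0.04), and CHAC1, a glutathione-degrading enzyme (3.07 ± 0.17 and 0.84 ± 0.09).

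NF-kB feedback targets rose in 5 of 10 tested genes and fell in 1 in HCT116 (median 0.34), and rose in 9 of 10 with 0 falling in A375 (median 1.26). BIRC3, the closest relative of BIRC2 among the IAP genes, rose by 0.91 ± 0.20 in HCT116 and 2.59 ± 0.11 in A375. CXCL8, a chemokine, rose by 2.32 ± 0.38 and 2.17 ± 0.08, NFKB2, an NF-kB subunit, by 0.40 ± 0.05 and 1.24 ± 0.05, and ICAM1, an adhesion molecule, by 1.27 ± 0.07 in A375, with 0.28 ± 0.13 in HCT116 (adjusted p = 0.101). The response was larger in A375 for 7 of the 10 genes by the test of the difference between lines, and smaller for 0. Of all tested genes, 10.4% were higher and 8.31% lower by that test. The 7 included BIRC3 (1.68 ± 0.25, adjusted p = 1.71e-07).

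The lists of CHOP axis genes, NF-kB feedback targets and p53 targets were drawn up without the members. They cannot show whether a member, TNFRSF10B included, is a target of CHOP, NF-kB or p53 here, which was not tested. Of the 14 tested p53 targets, 6 rose and 1 fell in the inhibited HCT116 knockout. In the inhibited A375 knockout 7 rose and 2 fell, with medians of 0.07 in both lines. GDF15, a secreted stress cytokine, rose by 1.68 ± 0.04 in HCT116 and 0.86 ± 0.19 in A375, BBC3, which encodes the death activator PUMA and also stands in the CHOP list, by 0.89 ± 0.09 and 0.43 ± 0.15, and CDKN1A, the cell cycle inhibitor p21, by 0.27 ± 0.04 and 0.27 ± 0.04. AEN, an apoptosis nuclease, fell in HCT116 (-0.43 ± 0.05). In HCT116, 10 of the 14 were already higher and 0 lower in the vehicle-treated knockout than in the parent (median 0.41). Of all tested genes, 10.5% were higher and 10.8% lower in that contrast. CDKN1A was higher by 0.41 ± 0.04 and GDF15 by 0.92 ± 0.06.

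Among the other receptors and ligands 2 of 8 tested genes rose and 2 fell in HCT116, against 17.0% and 19.6% of all tested genes. In A375, 3 of 9 rose and 2 fell, against 18.6% and 18.8%. TNFRSF1A, the main receptor of tumour necrosis factor, rose in both (0.48 ± 0.07 and 0.26 ± 0.04), and TNFRSF12A, the TWEAK receptor, fell in both (-0.73 ± 0.05 and -0.60 ± 0.04). TNFRSF11B, a soluble decoy that can bind TRAIL, rose in A375 (0.87 ± 0.16) and was too low to test in HCT116, and TNFRSF21, a death receptor, fell in HCT116 (-0.24 ± 0.05), with -0.03 ± 0.05 in A375.

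Of the adaptors, kinases and ubiquitin enzymes 2 of 20 rose and 2 fell in HCT116, and 6 rose and 2 fell in A375. PEA15, a death effector domain protein that binds FADD, fell in both (-0.43 ± 0.06 and -0.47 ± 0.03). RBCK1, a subunit of the linear ubiquitin ligase, rose in HCT116 (0.89 ± 0.06, with 0.06 ± 0.05 in A375), and TNFAIP3 and CYLD, deubiquitinases that restrain NF-kB, rose in A375 (1.22 ± 0.11 and 0.52 ± 0.08), with 0.03 ± 0.21 and -0.17 ± 0.11 in HCT116.

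Caspases and the apoptosome gave 2 genes up and 5 down of 10 in HCT116, and 2 up and 2 down in A375. CYCS, cytochrome c, fell in both (-0.38 ± 0.04 and -0.23 ± 0.03), as did CASP2 (-0.13 ± 0.05 and -0.28 ± 0.05). BID, the link from caspase-8 to mitochondria, fell in HCT116 (-0.34 ± 0.07), with -0.11 ± 0.08 in A375. Of the other IAP genes and antagonists 1 of 7 rose and 2 fell in HCT116, and 1 of 6 rose and 1 fell in A375: BIRC3 rose, BIRC5, which encodes survivin, fell in both lines (-0.28 ± 0.04 and -0.40 ± 0.04), and HTRA2, a mitochondrial IAP antagonist, fell in HCT116 (-0.22 ± 0.08, adjusted p = 0.0232), with -0.15 ± 0.08 in A375. In the parents no gene of these 7 lists passed in either line.

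**Figure D5:**
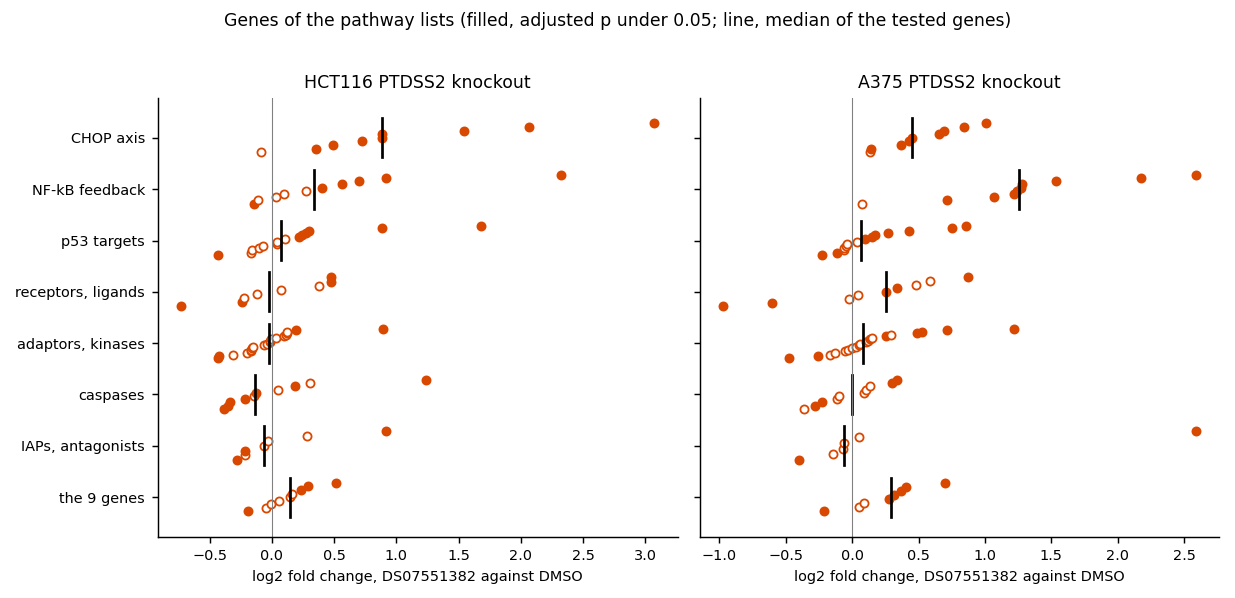
Inhibitor response in the PTDSS2 knockouts for the tested genes of 7 pathway lists and for the 9 genes; the x axis is the log2 fold change of DS07551382 against DMSO, each point is a gene, filled points passed an adjusted p of 0.05 and the line is the median. The CHOP axis is shifted up in both lines (medians 0.88 and 0.45), and the NF-kB feedback list further in A375 (1.26) than in HCT116 (0.34). The lists were chosen with earlier results of these data known.

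Likeness to the members was described over the 24 libraries by Pearson's r of log2 CPM centred within each line, among 9953 genes. The genes most like TNFRSF10B were HSPA13, an endoplasmic reticulum chaperone (r = 0.956), TXNRD1, a thioredoxin reductase (0.954), AHNAK2 (0.954), CD9, a tetraspanin (0.951), and NFKBIA, the NF-kB inhibitor (0.951). DDIT3 had an r of 0.888 with TNFRSF10B, and 83 genes (0.834%) were higher. CDKN1A and ATF4, also looked up, had an r of 0.906 (49 genes higher) and 0.861 (156 genes higher). Within single lines the r of DDIT3 was 0.934 in HCT116 and 0.956 in A375, beside 0.953 and 0.960 for NFKBIA. It was 0.923 and 0.912 for CDKN1A and 0.957 and 0.887 for ATF4. For FAS, the member with the widest range of line-centred group means, the genes were GOLGA2 (0.898), PHLDA1 (0.898), FTH1, a ferritin chain (0.896), NFKBIA (0.894) and IBTK (0.892). DDIT3 had an r of 0.684 with FAS, below 563 genes (5.66%). For CDKN1A it was 0.803, below 124 genes, and for ATF4 0.715, below 411 genes. Within lines the r of DDIT3 was 0.677 in HCT116 and 0.906 in A375, beside 0.837 and 0.919 for NFKBIA. It was 0.878 and 0.831 for CDKN1A and 0.790 and 0.921 for ATF4. The points are the libraries of the 8 groups, so each r also reflects the group differences described above. NFKBIA, which stands in both sets, rose by 0.56 ± 0.08 in the inhibited HCT116 knockout and by 1.28 ± 0.08 in the A375 knockout.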

How the data were processed

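RNA was sequenced from 24 libraries after selection of polyadenylated RNA, per the labels' protocols. The authors deposited, per the file headers, an expected count, a TPM value and an abundance-weighted mean transcript length in bases for every gene, for which the submitters' processing notes name RSEM 1.2.23, STAR 2.4.2a and hg19; neither annotation release nor strand setting is stated in these sources, so reads of antisense genes cannot be told apart. Gene IDs were matched to symbols (25220 of 25343; the other 123 held at most 0.0724% of a library's counts). Expected counts were rounded and tested per line (12 libraries, means of 4 groups) or over all 24 libraries for comparisons between lines, with edgeR 4.0.16 (filterByExpr with a minimum count of 10, TMM scaling, robust quasi-likelihood fit) in R 4.3.3, Benjamini-Hochberg adjustment over all tested genes and a threshold of 0.05. The standard error is the log2 fold change divided by the square root of F. Levels are the deposited TPM values; CPM used TMM-scaled library sizes. TNFRSF10D failed the count filter in A375. No replicates were identical. Alternatives were DESeq2 1.42.0 and its size factors, library size alone, limma 3.58.1 (voom, or log2 of TPM with a pseudocount of 0.5), no filter, a mean of at least 5 CPM, all 24 or only the 6 libraries compared, a replicate block, each library left out and, added after the data were seen, edgeR's older quasi-likelihood method. Named genes were all 9 members, PTDSS2, DDIT3, up to 4 genes per list with the smallest adjusted p in either inhibited knockout, and the 5 genes most like TNFRSF10B and FAS among genes with a mean of at least 8 CPM (prior count 2). The lineage markers are named as label checks, and TNFRSF10C as the paralog. A gene that this rule names is not reported here. The members and lists were chosen with earlier results of these data known. The code was tested on simulated data.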

Additional observations from a re-analysis of the deposited data

Results flagged for a closer look

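Members whose inhibitor response differed between genotypes, by the interaction of genotype and inhibitor (log2 knockout response minus log2 parent response, edgeR): in HCT116 these were TNFRSF10B at 0.30 (adjusted p = 0.000144), TNFRSF10D at 0.57 (4.01e-07) and XIAP at 0.32 (0.00139). In A375 they were TNFRSF10B at 0.35 (9.85e-06), FAS at 0.62 (0.00807), CFLAR at 0.60 (0.00454) and XIAP at 0.26 (0.00482). Between the 2 knockouts the response differed for FAS, with A375 above HCT116 by 0.55 (adjusted p = 0.00439), and for CFLAR, by 0.41 (0.0317). Each inhibited knockout library lay above each vehicle knockout library for these genes in the line named, in TPM or, for CFLAR, in TPM and CPM.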

How the results depend on the processing

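No called member changed its sign under any alternative run. Over all members, comparisons and alternatives 1521 values kept their status, 43 lost a call and 10 gained one. The 1521 include values that were called in neither run. In the inhibited HCT116 knockout the count of members that fell went from 1 to 0 with library size alone, the filter of 5 CPM, DESeq2, all 24 libraries and only the 6 libraries compared. In the vehicle-treated HCT116 knockout against parent the count of higher members went from 1 to 0 with DESeq2, limma-voom, log2(TPM + 0.5) and the 6 libraries, and that of lower members from 1 to 2 on log2(TPM + 0.5). In the same contrast of A375 the count of higher members went from 2 to 1 with library size alone and DESeq2 and to 0 on log2(TPM + 0.5), and that of lower members from 1 to 0 with DESeq2 and log2(TPM + 0.5). For the difference between knockouts the count of higher members went from 2 to 1 with DESeq2 and log2(TPM + 0.5), and that of lower members from 0 to 1 on log2(TPM + 0.5), where the added gene, TNFRSF10D, is at 0 or 1 count in A375. The cause of the other changes was not tested. With 1 library left out in turn, the count ranged from 0 to 1 (fell, inhibited HCT116 knockout), 0 to 1 and 1 to 2 (higher and lower, HCT116 vehicle contrast), 4 to 5 (rose, inhibited A375 knockout), 1 to 2 and 0 to 1 (higher and lower, A375 vehicle contrast), 0 to 1 (lower, A375 interaction), 1 to 2 (higher, difference between knockouts) and 5 to 6 (lower, A375 against HCT116 parents). Same-numbered replicates did not deviate together (median r -0.003 over 36 pairs, -0.248 to 0.185, and 0.002 for different numbers). This check cannot tell whether they were handled as sets, which the labels do not state. With a replicate block CASP8 between the parents went to -0.20 (edgeR adjusted p = 0.0758). The lower members went from 6 to 5 there, and no other member call changed. Over all genes, DESeq2 called 1798 instead of 2801 in the HCT116 vehicle contrast, 1371 instead of 2115 in that of A375, and 1 instead of 0 in the HCT116 parent; log2(TPM + 0.5) called 6 instead of 12 in the A375 parent, and left the A375 interaction with 60.5% instead of 48.5% of calls higher. The 6 libraries alone, or leaving out inhibited parent replicate 1, gave 1 call in the HCT116 parent, and leaving out replicate 3 gave 2. In the A375 parent 8 were called without vehicle replicate 3. The older quasi-likelihood method changed no member call. Low counts limit FAS and CFLAR in A375 (63 to 208 and 90 to 197 counts per library) more than TNFRSF10B (798 to 1770).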
